A study of Homo sapiens with 12 samples.

Results

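The comparison described here is CPSF6 silencing in HepG2 cells after 6 h in actinomycin D. It sets the 2 siCPSF6 libraries collected at 6 h against the 2 siNC libraries collected at 6 h, which are 4 of the 12 libraries of the series. HepG2 is a human liver cancer line that keeps much of the hepatocyte programme, and all libraries come from this 1 line. Cells received siRNA against CPSF6 (labelled si-CPSF6) or a control siRNA (labelled si-NC), were cultured for 48 h, and were then given 5 µg/ml actinomycin D, the siNC cells included. They were harvested at 0, 3 or 6 h, with 2 biological replicates for each siRNA at each time. ERCC spike-in RNA was mixed with 5 µg of total RNA, and a directional kit was used for the mRNA libraries. The labels give neither the siRNA sequences nor a shared day or batch for any libraries.

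CPSF6 forms cleavage factor Im together with NUDT21; the complex binds UGUA motifs in nascent pre-mRNA and takes part in choosing among the polyadenylation sites of a gene. Loss of cleavage factor Im is known to shift many mRNAs to proximal sites, which shortens their 3′ untranslated regions. Actinomycin D intercalates into DNA and blocks transcription, so that after some hours the level of an mRNA reflects both its level at the start and how much of it has decayed since. The difference between siCPSF6 and siNC at 6 h therefore asks which RNAs stood apart once synthesis had been blocked, and its contrast with 0 h asks which of those differences were not already there.

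Of 22148 genes in the deposited tables, 12939 had a mean normalized count of at least 20 over the 12 libraries and were tested. The deposited counts were scaled by the authors to nearly the same upper quartile in every library, and every level below is relative to that scale. Depth, estimated from the spacing of the scaled values, was about 23.9 and 28.4 M reads in the siCPSF6 libraries and 26.8 and 25.0 M reads in the siNC libraries at 6 h. Spike-ins took 1.372% and 1.32% of the normalized counts in siCPSF6 and 1.408% and 1.265% in siNC. Replicates correlated at 0.9912 in siCPSF6 and 0.9911 in siNC at 6 h (log2 values across genes), and no library was a copy of another. The 8 hepatocyte markers summed to 25850 to 26020 TPM in siCPSF6 and 22140 to 23330 TPM in siNC, with none at 0. For other cells (stroma, endothelium, immune system) 9 of 15 markers were in the files. They summed to 364.4 to 543.3 TPM in siCPSF6 and 741.9 to 1027 TPM in siNC, VWF being at 0 in siCPSF6 and COL3A1 at 0 in siNC. These sums are RNA levels of marker genes in bulk samples of 1 cell line, and they were not read as numbers of other cells. Many of the genes named below overlap another annotated gene or have near-identical copies, and whether reads were counted by strand is not stated, so their counts are uncertain to that extent.

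CPSF6 itself (ENSG00000111605.18; chr12:69239537-69274358, GRCh38) was low in both siCPSF6 libraries at 6 h. It had normalized counts of 810 and 732 in siCPSF6, against 3469 and 3443 in siNC. The groups did not overlap, and the siCPSF6 level was 0.223 of that in siNC (log2 -2.16, SE 0.09, limma adjusted p = 1.2e-10). In TPM the gap was wider, with 4.35 and 4.14 TPM in siCPSF6 and 33.9 and 33.0 TPM in siNC (log2 -2.95, SE 0.11). CPSF6 overlaps 1 annotated gene on the opposite strand.

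At 6 h 7201 of 12939 genes (55.7%) differed between siCPSF6 and siNC by limma with Benjamini-Hochberg adjustment over all genes, at an adjusted p under 0.05. Of these 3495 were higher (27% of the genes tested) and 3706 were lower (28.6%) in siCPSF6. A difference of at least 2-fold was reached by 1593 genes (12.3%), 862 higher and 731 lower. The same count was 869 at 0 h and 1488 at 3 h, and the median size of the difference over all genes was 0.288 at 0 h, 0.373 at 3 h and 0.383 at 6 h on the log2 scale. Differences are given between group means on the scale log2(normalized count + 1), a scale that shrinks differences of weakly expressed genes. With 2 libraries a group, the p-values rest on a spread between replicates that is pooled over all 6 groups, not on the 6 h libraries alone. When the 6 h libraries were fitted alone, 6285 genes passed. The split depends on the table used: with TPM 5610 genes differed, 3390 higher (60.4%, against 48.5% as deposited) and 2220 lower.

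Among the genes with the largest rises was PLA2G3 (ENSG00000100078.4; chr22:31134809-31140607), a secreted phospholipase. It had 379 and 246 normalized counts in siCPSF6 and 32 and 36 in siNC. Both siCPSF6 libraries lay above both siNC libraries, with a log2 difference of 3.13 (SE 0.24, limma adjusted p = 6.4e-08). MMP2 (ENSG00000087245.13; chr16:55389700-55506691), a gelatinase that degrades matrix, had 2019 and 1559 in siCPSF6 and 217 and 218 in siNC. Its level was 8.12-fold higher in siCPSF6 (log2 3.02, SE 0.13, limma adjusted p = 2.7e-10), without overlap between the groups. The difference of MMP2 was already there before actinomycin D (log2 3.43 at 0 h and 3.32 at 3 h). Its change from 0 to 6 h did not pass. NOTCH3 (ENSG00000074181.9; chr19:15159038-15200981), a receptor of the Notch family, had 274 and 185 in siCPSF6 and 35 and 27 in siNC, again without overlap (log2 2.83, SE 0.235). GXYLT1 (ENSG00000151233.11; chr12:42081845-42144879), which adds xylose to O-glucose on Notch receptors, had 2602 and 2535 in siCPSF6 and 360 in each siNC library (log2 2.83, SE 0.08, limma adjusted p = 9.4e-12). The groups were far apart relative to the replicate spread. For GXYLT1 the difference was 1.26 at 0 h and 1.66 at 3 h. MMP2 overlaps other genes on both strands and NOTCH3 1 gene on its own strand.

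A further 7 genes with large rises had values between 2.58 and 2.90 on the log2 scale, and in none did the groups overlap. Genes picked for large differences or small p-values, here and below, mostly separate in this way because of that choice. The share of all genes that separate was not counted. SV2A, a synaptic vesicle glycoprotein, rose by 2.87 and DIPK1B by 2.90. WFIKKN1, a secreted protein with protease inhibitor domains, rose by 2.82. JNK signalling has a scaffold in MAPK8IP2, which had 2.71, and ZDHHC7, a palmitoyltransferase, had 2.67. MIR22HG, the host transcript of a microRNA, had 270 and 327 in siCPSF6 and 40 and 46 in siNC (log2 2.76, SE 0.175). DGCR2, which encodes a membrane receptor, had 3163 and 2865 in siCPSF6 and 513 and 491 in siNC (log2 2.58, SE 0.09). MIR22HG and DGCR2 overlap genes on both strands.

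The largest falls were in NGEF and F7. NGEF (ENSG00000066248.15; chr2:232878686-233013272), a guanine nucleotide exchange factor for small GTPases, had 29 and 58 normalized counts in siCPSF6 and 274 and 288 in siNC (log2 -2.74, SE 0.24, limma adjusted p = 2.5e-07). F7 (ENSG00000057593.14; chr13:113105788-113120681), coagulation factor VII, had 106 and 119 in siCPSF6 and 837 and 675 in siNC. Its siCPSF6 level was 0.151 of that in siNC, and the groups did not overlap (log2 -2.73, SE 0.17, limma adjusted p = 1.1e-08). ARL6IP4 (ENSG00000182196.13; chr12:122980060-122982913) had 1022 and 916 in siCPSF6 and 6083 and 5421 in siNC (log2 -2.57, SE 0.08). It was the most abundant gene among the 12 largest falls. NGEF overlaps 2 genes on the opposite strand and ARL6IP4 1 gene on each strand.

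The remaining genes of that group fell by 2.33 to 2.56 on the log2 scale, with no overlap between the groups. They included BCL7B, a subunit of BAF chromatin remodelling complexes (-2.56), and PIGZ, a mannosyltransferase of membrane anchors (-2.56). PAGR1, a subunit of a histone H3 methyltransferase complex, had 186 and 190 in siCPSF6 and 946 and 1036 in siNC (log2 -2.39). RAB4B, a GTPase of recycling endosomes, had -2.36 and ZNF76, a zinc finger protein, -2.35. NKAP had -2.35, PET117, an assembly factor of cytochrome c oxidase, -2.33, MIX23 -2.38 and SMIM14 -2.38. SMIM14 fell by 1.09 in TPM. Low and high expressed genes are both among these rises and falls, as the plot of the largest differences shows.

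**Figure D1:**
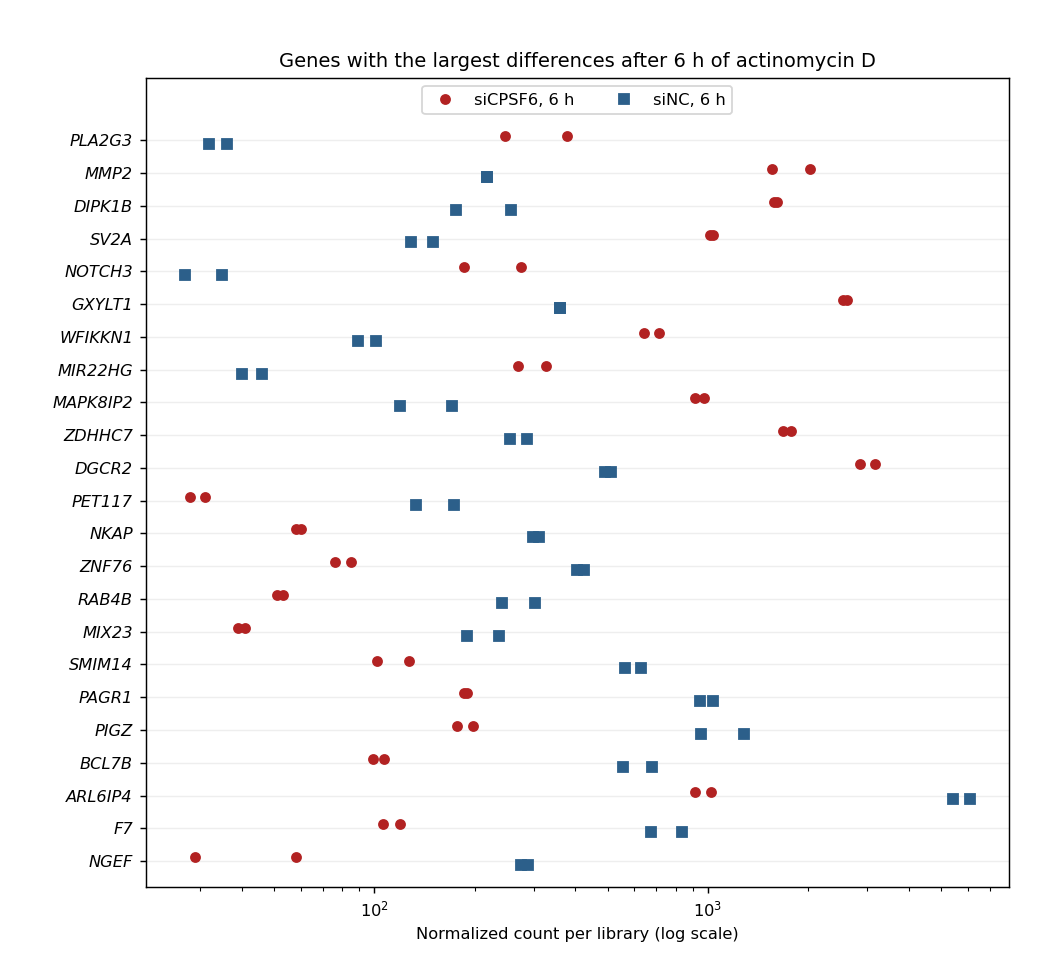
Normalized count per library (x axis, log scale) at 6 h, 1 gene per row, for 11 of the 12 largest rises and for the 12 largest falls. Circles are the 2 siCPSF6 libraries and squares the 2 siNC libraries. In every row the circles lie on 1 side of the squares, which follows largely from choosing genes with large differences. For example, PLA2G3 is at 379 and 246 in siCPSF6 and 32 and 36 in siNC.

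Genes of growth factor, Notch and Wnt signalling had the largest share of members higher in siCPSF6 among the gene lists examined. Of 45 members tested 34 were higher (75.6%, against 27% of all genes tested), 0 were lower and 11 did not pass. The list median was 0.75 at 6 h, beside -0.025 over all genes, and it was 0.53 at 3 h and 0.31 at 0 h. With spike-in scaling 34 were higher and 1 lower (19.4% and 21.6% of all genes), with TPM 33 were higher, and without siNC 6 h replicate 2 as many as 2 were lower. The list's genes have a median longest annotated transcript of 5340 bases, and long genes had higher values as a class. The part of length in the result was not tested.

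Among the receptors of this list, NOTCH2 had 1057 and 800 normalized counts in siCPSF6 and 233 and 187 in siNC (log2 2.13, SE 0.13, limma adjusted p = 9.6e-09). The groups did not overlap, and at 0 h the difference was 0.50. NOTCH1 rose by 1.44 (-0.08 at 0 h), and the Notch ligand gene JAG1 by 1.43 (0.31 at 0 h). The receptor tyrosine kinase genes MET, INSR, ERBB2 and IGF1R rose by 1.43, 1.33, 1.16 and 1.13. In the Wnt branch, LGR4, a receptor for R-spondins, rose by 1.19, and ZNRF3, a ligase that removes Wnt receptors, also by 1.19. DKK1, a secreted Wnt antagonist, had 8970 and 7930 in siCPSF6 and 2721 and 2709 in siNC (log2 1.63, SE 0.09, limma adjusted p = 5.0e-09). At 0 h it stood lower in siCPSF6, at 23780 and 20099 against 34266 and 32099 in siNC (log2 -0.60). The difference of DKK1 thus turned over between the times, and the change of the effect was 2.24 (limma adjusted p = 1.1e-07). NOTCH1, JAG1, the 4 kinase genes, LGR4 and ZNRF3 were chosen for naming after their values were seen.

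BMP signalling and iron handling genes were higher as a group. Of 25 members 14 were higher (56%), 0 were lower and 11 did not pass, beside 27% higher and 28.6% lower over all genes. The median was 0.40 at 6 h, 0.29 at 3 h and 0.27 at 0 h. Without siCPSF6 6 h replicate 1, 1 member was lower. BMP4, a secreted ligand, had 1338 and 1184 in siCPSF6 and 256 and 328 in siNC (log2 2.12, SE 0.14). SMAD6, an inhibitor within the BMP pathway, had 777 and 673 in siCPSF6 and 183 and 165 in siNC (log2 2.05, SE 0.12). In neither gene did the groups overlap. At 0 h BMP4 had 6287 and 5860 in siCPSF6 and 2902 and 2757 in siNC, and SMAD6 740 and 737 in siCPSF6 and 359 and 381 in siNC. HAMP, the iron hormone hepcidin and a target of BMP signalling in hepatocytes, had 1.81 at 6 h and -0.10 at 0 h (change of the effect 1.90, limma adjusted p = 0.013). SMAD7 had 1.16 at 6 h and 0.11 at 0 h. HAMP and SMAD7 were picked out after their values were seen.

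Genes of the matrix and of proteolysis had 20 of 33 members higher (60.6%) and 2 lower, beside 27% and 28.6% over all genes. Their median was 0.52. THBS1, thrombospondin, had 17350 and 14654 in siCPSF6 and 4436 and 5001 in siNC (log2 1.76, SE 0.09). The members that fell were SDC4, a heparan sulfate proteoglycan of the cell surface (-0.72), and HSPG2, the basement membrane proteoglycan perlecan (-0.82). HSPG2 had 3721 and 2944 in siCPSF6 and 6805 and 5013 in siNC, and its groups did not overlap. Of 25 genes of cholesterol synthesis 14 were higher (56%) and 6 lower (3 with spike-in scaling, 2 with TPM). MSMO1, a sterol demethylating oxidase, had 7295 and 7065 in siCPSF6 and 2196 and 2232 in siNC (log2 1.70, SE 0.07), and HMGCS1, which makes the precursor of mevalonate, rose by 1.07. PMVK and ACAT2, which act early in the same pathway, fell by 0.87 and 0.48. Of 37 genes of fatty acid metabolism 11 were higher (29.7%) and 16 lower (43.2%), beside 27% and 28.6% over all genes. ELOVL6, a fatty acid elongase, had 1.60 and EHHADH, a peroxisomal oxidation enzyme, -1.38.

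The cytosolic ribosomal protein genes were lower in siCPSF6 as a group. Of 77 members 58 were lower (75.3%, against 28.6% of all genes tested), 0 were higher and 19 did not pass. The median was -0.26 at 6 h, -0.21 at 3 h and 0.05 at 0 h, and the members ranged only from -0.73 to 0.16 at 6 h. At 3 h 44 members were lower, beside 3760 of all 12939 genes. For 0 members was the effect at 6 h called different from that at 3 h. RPL27 had 13828 and 14987 normalized counts in siCPSF6 and 25031 and 22649 in siNC (log2 -0.73, SE 0.08, limma adjusted p = 2.8e-06). RPL22 had 11921 and 12697 in siCPSF6 and 17952 and 16629 in siNC (log2 -0.49, SE 0.07). In both genes the groups were separate. The median kept its sign with spike-in scaling (-0.29), median-ratio scaling (-0.23) and TPM (-0.21). The count of lower members did not: it was 26 with spike-in scaling, 54 with TPM, and 29 without siNC 6 h replicate 1. Over all genes 21.6% were lower with spike-in scaling. The ribosomal protein genes are short, with a median longest transcript of 1857 bases, and short genes had lower values as a class. The part of length in the result was not tested.

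Nuclear genes of the respiratory chain were also mostly lower. Of 76 members 55 were lower (72.4%, against 28.6% of all genes tested), 2 higher and 19 did not pass. The medians were -0.30 at 6 h, -0.28 at 3 h and -0.03 at 0 h, and 51 members were lower at 3 h. These genes have a median longest transcript of 1432 bases, and short genes had lower values as a class. The part of length in the result was not tested. NDUFS1, a core subunit of complex I, had 1952 and 2189 in siCPSF6 and 5174 and 5360 in siNC (log2 -1.35, SE 0.08). NDUFB9, another subunit of complex I, had 1853 and 2197 in siCPSF6 and 4783 and 4960 in siNC (log2 -1.27, SE 0.09). The 2 that rose were UQCRFS1, the iron-sulfur subunit of complex III (0.44), and ATP5MC3, a subunit of the ATP synthase ring (0.37). The rise of ATP5MC3 did not pass with spike-in scaling (0.34, limma adjusted p = 0.068). On that scale 33 members were lower, beside 21.6% of all genes.

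By contrast, 8 of the 13 mRNAs encoded in the mitochondrial genome were higher (61.5%) and 0 lower, with a median of 0.27. MT-CYB, cytochrome b of complex III, had 22657 and 24765 in siCPSF6 and 13377 and 14788 in siNC (log2 0.75, SE 0.07). MT-ND2, a complex I subunit, had 21315 and 19629 in siCPSF6 and 14595 and 14691 in siNC (log2 0.48, SE 0.06). Neither gene's groups overlapped. With spike-in scaling 3 of the 13 were higher, beside 19.4% of all genes. The mitochondrial ribosomal proteins, which are encoded in the nucleus, were mixed. Of 76 members 17 were higher (22.4%) and 32 lower (42.1%), beside 27% and 28.6% over all genes.

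Other housekeeping lists also had larger shares of lower members than the 28.6% of all genes, as deposited. Of 22 aminoacyl-tRNA synthetase genes 17 were lower (77.3%) and 3 higher, with a median of -0.39. KARS1, which charges the lysine tRNA, had 2611 and 2830 in siCPSF6 and 6724 and 7010 in siNC (log2 -1.34, SE 0.07, limma adjusted p = 2.0e-09). YARS1, the tyrosine enzyme, fell by 0.95, while HARS1 and SARS1 were higher by 0.36 and 0.33 (with spike-in scaling both missed the threshold, at 0.077 and 0.11). Of 42 proteasome genes 23 were lower (54.8%) and 4 higher. PSMB6, a catalytic subunit, fell by 0.64 and PSMC3, an ATPase of the cap, by 0.60, whereas PSMD5, a chaperone of cap assembly, rose by 1.61. At 0 h and 3 h PSMC3 was higher in siCPSF6 (log2 0.29 and 0.26). Of 20 snoRNA host genes 12 were lower (60%) and 1 higher. SNHG5 had 2777 and 3270 in siCPSF6 and 5342 and 4991 in siNC (log2 -0.78, SE 0.09), and SNHG30 was the member that rose (1.06). With spike-in scaling 12 synthetase genes, 12 proteasome genes and 6 snoRNA hosts were lower. Over all genes 21.6% were lower on that scale. With TPM these list counts were 12, 16 and 7, beside 2220 of 12188 genes lower.

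**Figure D2:**
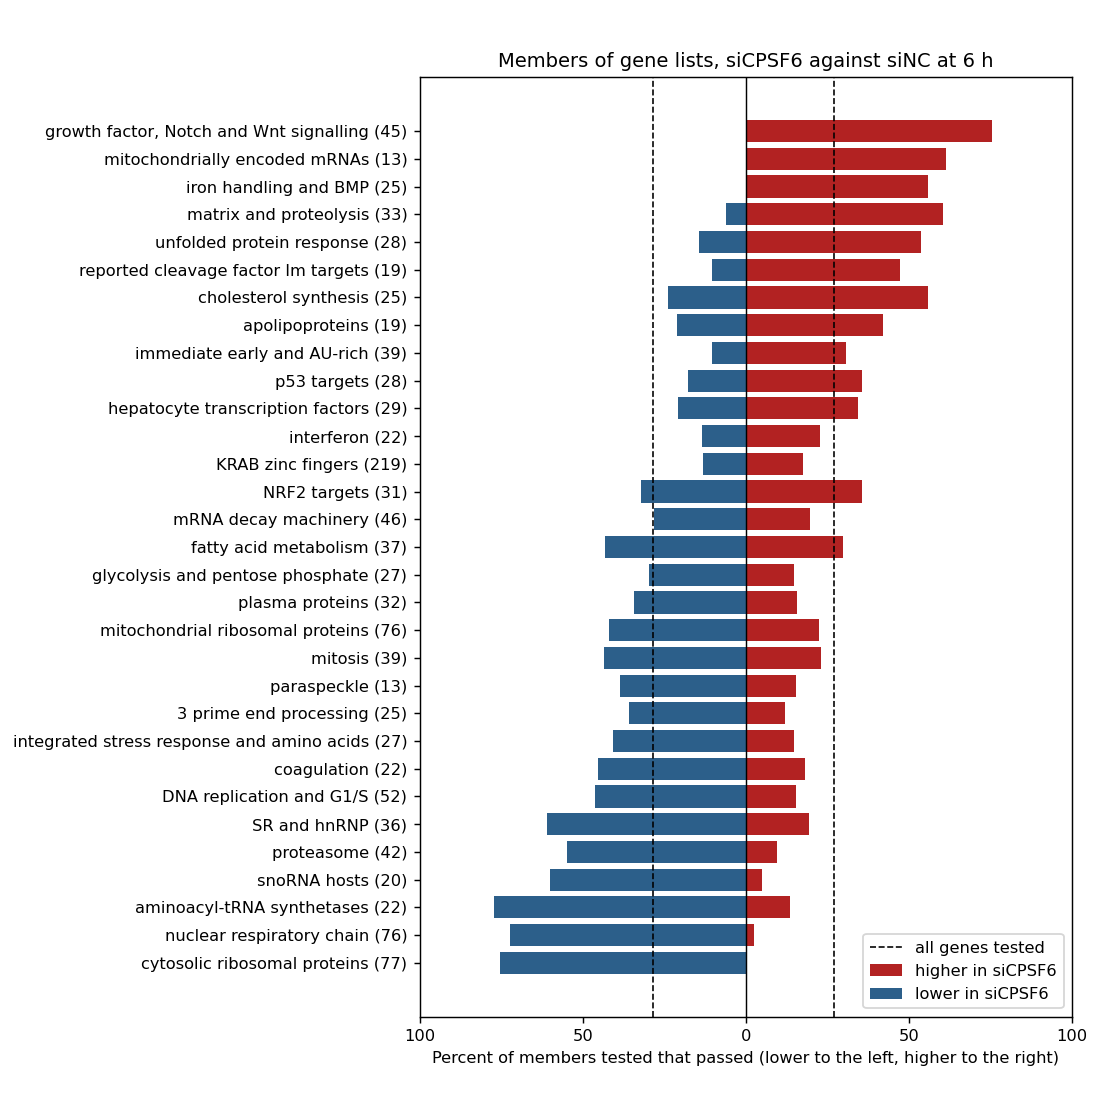
Percent of the tested members of each gene list (1 per row, number tested in brackets) that passed the test at 6 h, lower in siCPSF6 to the left and higher to the right. Dashed lines mark the shares over all genes tested, 28.6% lower and 27% higher; growth factor, Notch and Wnt signalling reached 75.6% higher and the cytosolic ribosomal proteins 75.3% lower.

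In the integrated stress response and amino acid list 11 of 27 members were lower (40.7%) and 4 higher (8 higher with the replicate block). The shares over all genes were 28.6% and 27%. The list median was -0.26 at 6 h as deposited and 0.04 with TPM, so the direction of the list as a whole depends on the table. ATF4, the transcription factor that drives this response, had 7807 and 8175 in siCPSF6 and 14534 and 13385 in siNC (log2 -0.80, SE 0.08, limma adjusted p = 6.1e-07). At 0 h it had 7947 and 7254 in siCPSF6 and 7949 and 7236 in siNC, which overlap. PCK2, a mitochondrial enzyme of phosphoenolpyruvate synthesis, had 6176 and 6350 in siCPSF6 and 12601 and 10857 in siNC (log2 -0.90). At 0 h and 3 h PCK2 was higher in siCPSF6 (log2 0.28 and 0.48). Its siNC counts at 3 h were 3638 and 3731, so the siNC level stood much higher at 6 h than at 3 h. SLC7A1 and SLC7A5, amino acid transporters of the plasma membrane, rose by 0.60 and 0.39. SLC7A11, the cystine transporter, had 863 and 906 in siCPSF6 and 1403 and 1242 in siNC at 6 h (log2 -0.58). At 0 h the order was the other way, with 593 and 545 in siCPSF6 and 273 and 261 in siNC (log2 1.09). This gene was picked out after its values were seen.

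The unfolded protein response list had 15 of 28 members higher (53.6%) and 4 lower, beside 27% and 28.6% over all genes. Its median was 0.22 at 6 h, 0.52 at 3 h and 0.43 at 0 h. CALR, the chaperone calreticulin, had 131185 and 127022 in siCPSF6 and 57930 and 58954 in siNC (log2 1.14, SE 0.06). DERL1, a component of the machinery that exports misfolded proteins from the endoplasmic reticulum, rose by 1.07. XBP1, a transcription factor of this response, had 229 and 209 in siCPSF6 and 461 and 513 in siNC (log2 -1.15), and SEC61B, a translocon subunit, fell by 0.44. None of these 4 genes had overlapping groups. Immediate early and AU-rich mRNAs, which decay fast, had 12 of 39 members higher (30.8%) and 4 lower (10.3%), beside 27% and 28.6% over all genes. RHOB, a small GTPase, rose by 0.86 and ZFP36L1, a protein that binds AU-rich elements, by 1.14, while JUND fell by 1.64 and FOSL1 by 0.99.

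Hepatocyte genes did not move as one. Among 29 hepatocyte transcription factors 10 were higher (34.5%) and 6 lower (20.7%), beside 27% and 28.6% over all genes. HNF4A, a master regulator of the hepatocyte, had 2565 and 2929 in siCPSF6 and 5389 and 5420 in siNC (log2 -0.98, SE 0.07), and MLXIPL, which responds to glucose, fell by 1.54. NR1H4, the bile acid receptor, had 670 and 770 in siCPSF6 and 343 and 411 in siNC (log2 0.93, SE 0.11). At 0 h NR1H4 was lower in siCPSF6, at 824 and 922 against 1501 and 1620 in siNC. NR2F6 rose by 0.68. Of 22 coagulation genes 10 were lower (45.5%) and 4 higher; PROC, protein C, fell by 0.69 and F3, tissue factor, rose by 0.82. Of 32 plasma protein genes 11 were lower and 5 higher (8 and 1 with spike-in scaling; 7 lower without siCPSF6 6 h replicate 1 or without siNC 6 h replicate 1; 8 higher with the replicate block). As deposited, the plasma protein shares were 34.4% lower and 15.6% higher, beside 28.6% and 27% over all genes. Among these genes were FGG, a fibrinogen chain, at -0.67 and HPX, the heme carrier hemopexin, at -0.81. At 0 h and 3 h FGG was higher in siCPSF6 (log2 0.48 and 0.46). Of 19 apolipoprotein genes 8 were higher (42.1%) and 4 lower; with spike-in scaling 4 were higher, and without siCPSF6 6 h replicate 2 there were 5. APOA4 had 689 and 641 in siCPSF6 and 158 and 133 in siNC (log2 2.19), and APOB, the structural protein of very low density lipoprotein, had 571859 and 529090 in siCPSF6 and 318033 and 338542 in siNC (log2 0.75). APOH and LCAT, which esterifies cholesterol in plasma, fell by 0.74 and 0.71. Of the markers of other cells 6 were tested: ACTA2, smooth muscle actin, had -1.46, CD68 -0.36 and CD14, a monocyte receptor that hepatocytes also make, 1.36.

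Cell cycle genes leaned to the lower side, beside 28.6% lower and 27% higher over all genes. Of 52 DNA replication and G1/S genes 24 were lower (46.2%) and 8 higher, with POLA2, a subunit of the primase complex, at -1.09 and CCNE1, cyclin E1, at 1.84. GINS3, a subunit of the replicative helicase, had 229 and 308 in siCPSF6 and 86 and 121 in siNC. Of 39 mitosis genes 17 were lower (43.6%; 11 with spike-in scaling or TPM) and 9 higher, with HMMR at -1.65, PRC1 at -0.79, BIRC5, survivin, at 0.90 and MAD2L1, a checkpoint protein, at 0.88. Of 28 p53 targets 10 were higher (35.7%) and 5 lower (17.9%), beside 27% and 28.6% over all genes. With spike-in scaling the counts were 6 and 2. PHLDA3, an inhibitor of AKT, rose by 2.34 and TNFRSF10B, a death receptor, by 0.72, while CDKN1A, the cell cycle inhibitor p21, had 364 and 481 in siCPSF6 and 764 and 834 in siNC (log2 -0.93). Of 27 glycolysis and pentose phosphate genes 8 were lower (29.6%) and 4 higher (14.8%), beside 28.6% and 27% over all genes. With the replicate block 14 were lower. PFKL had -0.51 (0.32 at 0 h), PFKP 0.79 and PFKFB3 0.80. Of 31 NRF2 targets 11 were higher and 10 lower, with TXNRD1, a thioredoxin reductase, at 0.93 and the aldo-keto reductase AKR1B10 at -1.46. NFE2L2, which encodes NRF2 itself, had 1080 and 1070 in siCPSF6 and 491 and 501 in siNC. These are shares of 35.5% higher and 32.3% lower, beside 27% and 28.6% over all genes; with spike-in scaling 5 were higher and 7 lower. KRAB zinc fingers (38 of 219 higher, 29 lower; 36 and 6 with TPM, and 16 lower without siCPSF6 6 h replicate 1) and interferon genes (5 of 22 higher, 3 lower) had shares under those of all genes in both directions.

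Among proteins that bind and process RNA, 22 of 36 SR and hnRNP genes were lower (61.1%) and 7 higher, beside 28.6% and 27% over all genes. The number lower was 10 at 0 h and 21 at 3 h. HNRNPLL, a splicing regulator, had 194 and 245 in siCPSF6 and 946 and 1022 in siNC (log2 -2.17, SE 0.12, and -1.895 at 0 h), and HNRNPA3 fell by 0.72. HNRNPF (ENSG00000169813.16; chr10:43385617-43409166), which binds G-rich runs in pre-mRNA, went against them, with 6341 and 6692 in siCPSF6 and 1526 and 1658 in siNC (log2 2.03, SE 0.06, limma adjusted p = 1.1e-11). With TPM 11 members of the list were lower and 10 higher, and with spike-in scaling 12 were lower and 4 higher. Of 25 genes of 3′ end processing 9 were lower (36%), CPSF6 included, and 3 were higher (12%), beside 28.6% and 27% over all genes. CPSF3, the endonuclease that cuts the pre-mRNA, had 633 and 576 in siCPSF6 and 922 and 1153 in siNC (log2 -0.77, SE 0.10). FIP1L1 had -1.10 and CPSF7, the other large subunit of cleavage factor Im, -0.51. CSTF1, a subunit of the cleavage stimulation factor, rose by 1.34, CLP1 by 1.01 and RBBP6 by 0.90. NUDT21, the small subunit that binds UGUA, had a value of 0.01 that did not pass. FIP1L1, CPSF7, CLP1 and NUDT21 were named after their values were seen. Of 46 genes of the mRNA decay machinery 9 were higher (19.6%) and 13 lower (28.3%), beside 27% and 28.6% over all genes. With spike-in scaling 5 were higher, and with TPM 7 were lower. Among them were the exosome subunit genes EXOSC4 and EXOSC3 at 1.39 and 1.02, PAN2, which trims poly(A) tails, at -1.28 and UPF3B, a factor of nonsense-mediated decay, at -1.20. Of 13 paraspeckle genes 2 were higher (15.4%) and 5 lower (38.5%), but with spike-in scaling 1 was lower and with TPM 2 were.

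Of 19 genes reported to change their 3′ UTR with cleavage factor Im, 9 were higher (47.4%) and 2 lower, beside 27% and 28.6% over all genes. Their median was 0.15 in counts and 0.56 in TPM. MSMO1, described above, was the member with the largest rise. RAC1, a small GTPase, and CCND1, cyclin D1, fell in counts by 0.63 and 0.38, but in TPM their values were -0.11 and -0.18 and did not pass (limma adjusted p = 0.31 and 0.16). The ratio of count to TPM, an apparent transcript length described below, differed by -0.40 for RAC1 (limma adjusted p = 0.0056) and by -0.07 for CCND1, which did not pass.

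The difference between 6 h and 0 h shows which of these effects differed from those at the start of actinomycin D. By the test of that difference 3153 genes (24.4%) had another effect at 6 h than at 0 h, 1547 with a higher one (12%) and 1606 with a lower one (12.4%). Of the 862 genes at least 2-fold higher in siCPSF6 at 6 h, 514 (59.6%) were also called higher at 0 h, and 463 (53.7%) had a larger effect at 6 h by test. Their median was 0.61 at 0 h, 0.98 at 3 h and 1.38 at 6 h, with a median change from 0 to 6 h of 0.22 in siCPSF6 and -0.66 in siNC. Of the 731 genes at least 2-fold lower, 543 (74.3%) were called lower at 0 h and 209 (28.6%) had a larger effect at 6 h by test. Their median was -0.86 at 0 h, -1.04 at 3 h and -1.28 at 6 h, with median changes of 0.34 in siCPSF6 and 0.73 in siNC. Since these genes were chosen for a large difference at 6 h, a larger median at 6 h is partly set by that choice. The same holds for the counts with a larger effect at 6 h by test, under either scaling. Over all genes 2825 of 12939 were called higher and 2732 lower at 0 h. The genes chosen in the same way at 0 h were 392 higher ones, with a median of 1.27 at 0 h, 1.34 at 3 h and 1.11 at 6 h, and 477 lower ones, with -1.28, -1.31 and -1.15. By test 81 of the 392 had a smaller effect at 6 h and 27 a larger one. Of the 477, 70 had a smaller and 18 a larger effect. A further count took the genes called in opposite directions at both times and with a change that passed, of which 132 were higher at 6 h and lower at 0 h and 160 the reverse. These counts rest on the scaling: with spike-in scaling 1130 genes passed, 892 of them with a higher effect at 6 h (78.9% of the calls, against 49.1% as deposited; 6.89% of the genes tested) and 238 with a lower one (1.84%). The all-gene median of the change was 0.076 on that scale and -0.028 as deposited. Under it 406 of the 862 and 56 of the 731 had a larger effect at 6 h by test. The comparisons at 0 h and 6 h share no libraries.

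**Figure D3:**
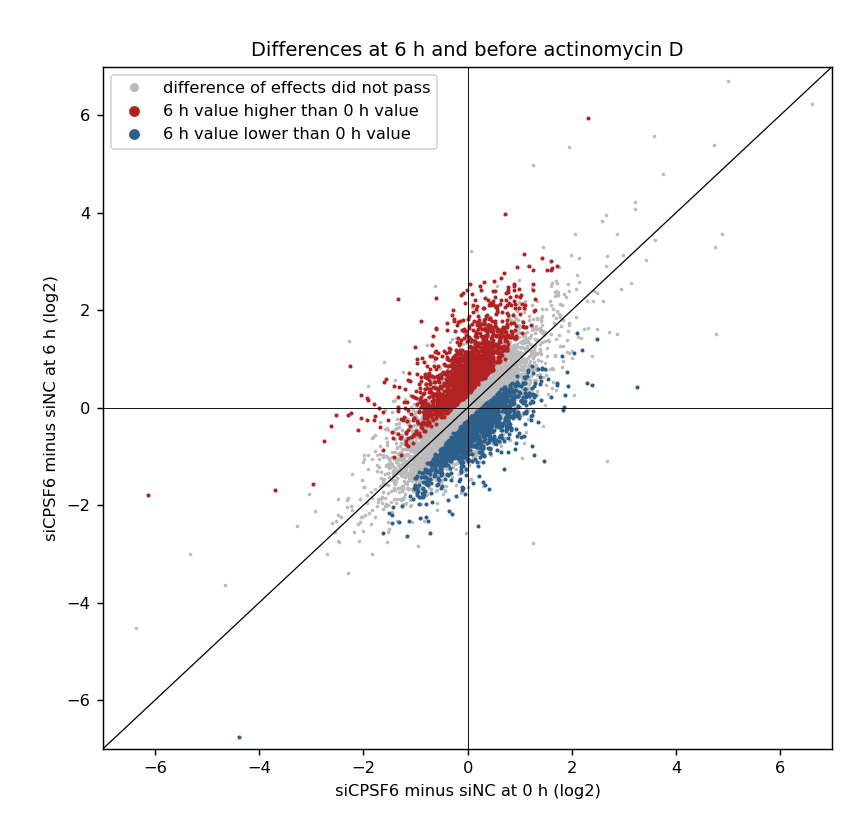
Difference between siCPSF6 and siNC at 6 h (y axis, log2) against the difference at 0 h (x axis, log2) for the 12939 genes tested, 1 point per gene. Points above the diagonal had a higher value at 6 h than at 0 h; coloured points are the 1547 with a higher and the 1606 with a lower effect at 6 h by test.

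SLC6A12 (ENSG00000111181.12; chr12:190077-214570), a betaine and GABA transporter, had the largest upward change of effect. Its normalized counts at 0 h were 127 and 159 in siCPSF6 and 383 and 343 in siNC. At 3 h they were 163 and 193 in siCPSF6 and 406 and 352 in siNC, and at 6 h 200 and 220 in siCPSF6 and 48 and 40 in siNC. The order of the groups was turned round at 6 h, without overlap at any time, and the change of effect from 0 h was 3.58 (SE 0.23, limma adjusted p = 1.8e-07). FAM120A (ENSG00000048828.17; chr9:93451722-93566107), an RNA-binding protein, had 2199 and 2214 at 0 h in siCPSF6 and 2358 and 2325 in siNC. At 3 h it had 3414 and 2977 in siCPSF6 and 3368 and 3208 in siNC, and at 6 h 4270 and 3622 in siCPSF6 and 823 and 721 in siNC. The groups lay close at 0 and 3 h and far apart at 6 h, with a change of effect of 2.44 from 0 h and 2.39 from 3 h. TRIM47, a ubiquitin ligase, had 503 and 547 at 6 h in siCPSF6 and 82 and 116 in siNC, against 1625 and 1758 in siCPSF6 and 1548 and 1878 in siNC at 0 h. Its change over 6 h was -1.69 in siCPSF6 and -4.11 in siNC on the log2 scale.

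Downward changes of effect also differed in form. RBM15, a subunit of the m6A methyltransferase complex, had 1097 and 990 at 0 h in siCPSF6 and 203 and 193 in siNC, a difference of 2.39. At 6 h it had 453 and 419 in siCPSF6 and 353 and 281 in siNC, still without overlap but with a difference of 0.47. MT1E, a metallothionein, had 211 and 215 at 6 h in siCPSF6 and 466 and 554 in siNC, while at 0 h it had 163 and 147 in siCPSF6 and 96 and 94 in siNC. BCL7B (ENSG00000106635.8; chr7:73536356-73558002) had 310 and 290 at 0 h in siCPSF6 and 505 and 480 in siNC. At 3 h it had 120 and 147 in siCPSF6 and 223 and 251 in siNC, and at 6 h 99 and 107 in siCPSF6 and 555 and 679 in siNC. In siNC the 6 h level of BCL7B thus lay above its 3 h level, and in siCPSF6 below it.

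**Figure D4:**
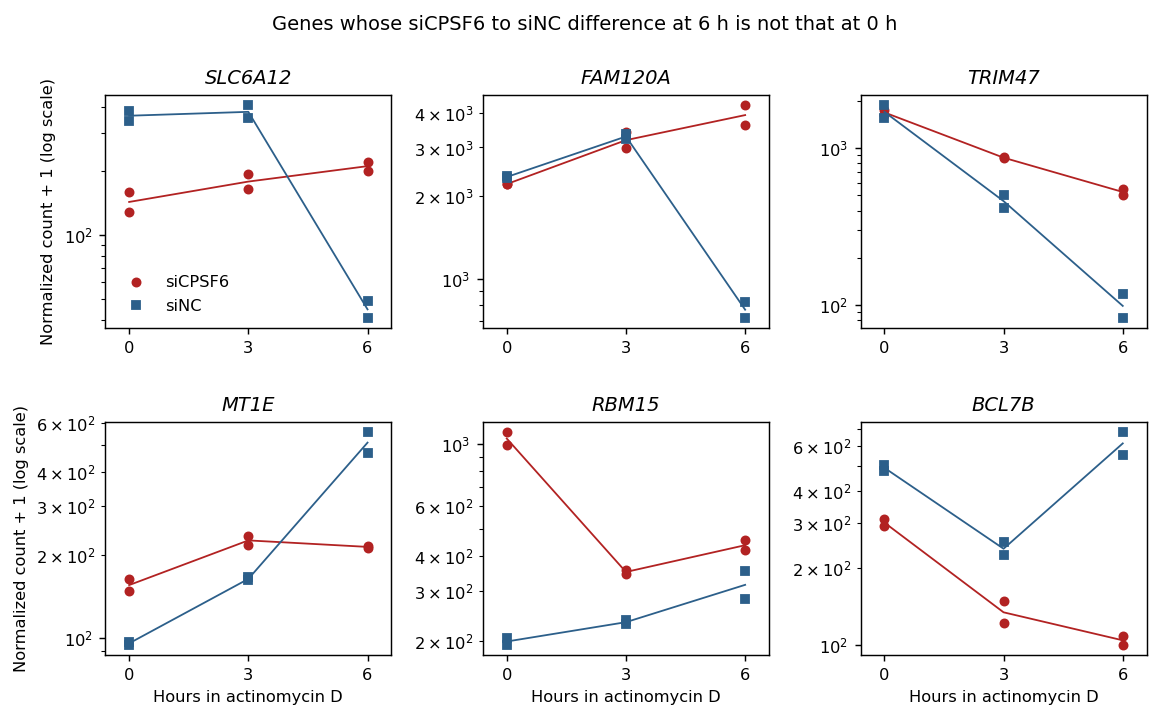
Normalized count + 1 (y axis, log scale) of 6 genes after 0, 3 and 6 h in actinomycin D (x axis). Points are single libraries (circles siCPSF6, squares siNC) and lines join the group means of the log values; FAM120A in siCPSF6 is at 3414 and 2977 at 3 h and 4270 and 3622 at 6 h, whereas in siNC it is at 3368 and 3208 at 3 h and 823 and 721 at 6 h.

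Read against the lists, the change of effect was upward for 20 of the 45 growth factor, Notch and Wnt genes and downward for 2, beside 12% and 12.4% of all genes. These counts were 16 and 1 with spike-in scaling, beside 6.89% and 1.84% of all genes, and 12 and 2 with TPM. Among cytosolic ribosomal proteins 41 of 77 had a lower effect at 6 h than at 0 h and 0 a higher one, but with spike-in scaling 0 were called in either direction and with TPM 9 were lower. The list median of the change was -0.30 as deposited, -0.20 with spike-in scaling and -0.16 with TPM. For the nuclear respiratory chain 31 of 76 were lower as deposited and 1 with spike-in scaling, a share near that of all genes, and for the proteasome 18 of 42 and 2. In the unfolded protein response list the effect was lower at 6 h for 13 of 28 and higher for 6, against 2 lower and 4 higher with spike-in scaling. The counts of called members in these 4 lists therefore depend on the scaling, whereas the medians of the changes stayed below 0 for the ribosomal, respiratory, proteasome and unfolded protein lists under the deposited scale, the spike-in scale and TPM.

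Compared with 3 h, 1981 genes (15.3%) had another effect at 6 h, 1015 with a higher (7.84%) and 966 with a lower one (7.47%). With the replicate number as a block the count was 3189, with spike-in scaling 604 (263 higher, 341 lower) and with TPM 975. PHLDA3 had 680 and 820 at 6 h in siCPSF6 and 123 and 175 in siNC, and its effect changed by 2.55 from 3 h. NIPSNAP2, a mitochondrial protein, had 1429 and 1597 in siCPSF6 and 361 and 454 in siNC at 6 h, with a change of 2.34. TRPV4, a cation channel, had 117 and 104 in siCPSF6 and 42 and 50 in siNC, with a change of 2.45. In the other direction, CHST14, a sulfotransferase of dermatan sulfate, had 2225 and 2064 at 6 h in siCPSF6 and 1304 and 1270 in siNC, a difference of 0.74 beside 2.79 at 3 h. DUS2, which modifies tRNA, had 106 and 96 in siCPSF6 and 385 and 366 in siNC at 6 h (log2 -1.89) and a value of 0.10 at 3 h. The groups of these 5 genes did not overlap at 6 h.

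The difference at 6 h went with transcript length, long genes having higher and short genes lower values in siCPSF6. Among 11726 protein-coding genes, those whose longest GENCODE 29 transcript is under 2 kb (1947 genes) had a median difference of -0.15, with 20.2% higher and 38.1% lower. Those over 8 kb (968 genes) had a median of 0.13, with 38.8% higher and 19.7% lower, and the classes between had medians of -0.03, 0.04 and 0.11. At 0 h the medians of the shortest and longest classes were 0.02 and 0.04, and at 3 h -0.11 and 0.06. The order of the classes at 6 h was the same in each of the 4 pairs of a siCPSF6 with a siNC library, and with spike-in scaling (-0.18 and 0.10), median-ratio scaling (-0.12 and 0.16) and TPM (-0.08 and 0.29) for the shortest and longest class. Spearman's correlation between length and difference across genes was 0.03 at 0 h, 0.09 at 3 h and 0.14 at 6 h. It is given as a description, since genes of 1 library share its depth and are not independent.

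**Figure D5:**
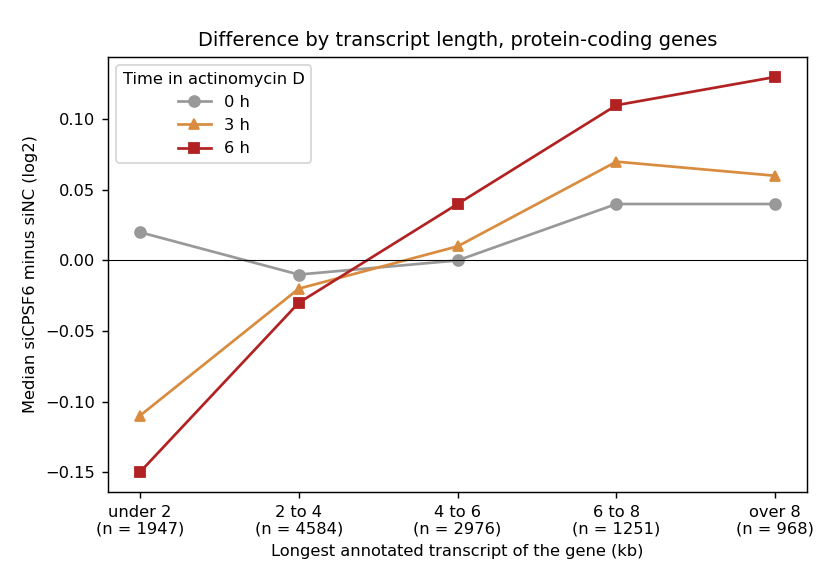
Median difference between siCPSF6 and siNC (y axis, log2) of protein-coding genes grouped by the length of their longest annotated transcript (x axis, kb, with the number of genes). Lines are 0, 3 and 6 h in actinomycin D; the 6 h line runs from -0.15 for genes under 2 kb to 0.13 for genes over 8 kb, and the 0 h line lies between -0.01 and 0.04.

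Since CPSF6 acts at the 3′ end, the ratio of normalized count to TPM was used as an apparent transcript length, centred on the median of each library. Of 10476 genes with a mean count of at least 100 and a mean TPM of at least 1, 3494 (33.4%) passed at 6 h, 2801 longer (26.7%) and 693 shorter (6.62%). That split depends on the centring: with the ratios not centred 862 passed, 40 longer and 822 shorter, and centred on the median deviation from each gene's mean 795 passed, 177 longer and 618 shorter. When the 6 h libraries were fitted alone 0 passed (limma; 2709 at an unadjusted p under 0.05). Changes of at least 1 on the log2 scale were called for 45 genes shorter and 5 longer in siCPSF6 at 6 h, and for 54 shorter and 4 longer at 0 h. Of the 45, 29 were also called shorter at 0 h and 0 had another length effect at 6 h than at 0 h by test. In counts 11 of the 45 were higher and 21 lower, while in TPM 38 were higher. Over all genes 3390 of 12188 were higher in TPM. Because the length is the ratio of count to TPM, genes chosen as shorter have TPM differences above their count differences. The number higher in TPM is therefore partly set by that choice.

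MBNL3, a splicing regulator of the muscleblind family, was among the 6 most shortened genes and by far the most abundant of them. In normalized counts it had 6474 and 6692 in siCPSF6 and 10327 and 12598 in siNC, lower in siCPSF6 (log2 -0.79). In TPM it had 101 and 92.1 in siCPSF6 and 31.4 and 41.3 in siNC, higher in siCPSF6 (log2 1.42). The apparent length differed by -2.09 (SE 0.07, limma adjusted p = 4.2e-05), and by -2.16 at 0 h. IGHMBP2, a helicase, differed by -2.35 (SE 0.41), but its siCPSF6 libraries were apart, at 14.9 and 5.86 TPM against 2.59 and 2.09 TPM in siNC, and the call was lost without siNC 6 h replicate 2 (limma adjusted p = 0.059). RPAP2, a phosphatase of RNA polymerase II, had -2.04, ACER3, a ceramidase, -1.79, LIN7A, a scaffold of cell junctions, -1.64 and LNPK, a protein of endoplasmic reticulum junctions, -1.64. In LNPK and LIN7A the difference in counts did not pass (0.20 and 0.13), whereas the TPM rose by 1.94 and 1.89. A gap in this direction follows from choosing genes by their apparent length. GXYLT1, named above for its rise in counts, had an apparent length lower by 1.33 at 6 h and by 0.51 at 0 h.

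The distal 3′ ends of these genes are shown because cleavage factor Im binds UGUA, written TGTA in DNA. Each line gives 30 transcribed bases within the last 100 of the most distal annotated transcript (GENCODE 29, GRCh38), 5′ to 3′, with each copy of the motif in capitals.
IGHMBP2 (chr11:68940515-68940544, plus strand): gaacctcagatgaTGTAcctgagcctcagg
MBNL3 (chrX:132369317-132369346, minus strand): ctatttaataaatgtgtgTGTAgtttattc
RPAP2 (chr1:92401979-92402008, plus strand): tTGTAatttttctTGTAacatctttgtctg
ACER3 (chr11:77026698-77026727, plus strand): aTGTAttttttcctgtctgctataatggag
LNPK (chr2:175923951-175923980, minus strand): ttcaggctctgaaTGTAgacagataaatat
LIN7A had no TGTA in that window. Among protein-coding genes shortened by at least 1 (log2) and with an annotated end, 24 of 43 (55.8%) had TGTA on the transcribed strand of the last 100 bases. Of all such protein-coding genes measured for length, 5462 of 10030 (54.5%) had it, so the share was near the background. Genes shortened by less were not examined as a set. A poly(A) signal AATAAA or ATTAAA in the last 50 bases was present in 35 of the 43 (81.4%) and in 78.7% of all. A match is a description of the annotated sequence only.

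The longest apparent change was in NEAT1, the noncoding RNA that scaffolds paraspeckles. NEAT1 is made as a short and a long isoform that share a start and differ in their 3′ end. It had 12.97 and 13.97 TPM in siCPSF6 and 61.2 and 61.6 TPM in siNC, without overlap (log2 -2.18, SE 0.20). In counts it had 8046 and 9097 in siCPSF6 and 12598 and 10953 in siNC, which did not pass (log2 -0.46, limma adjusted p = 0.15). The apparent length differed by 1.86 at 6 h (SE 0.10, limma adjusted p = 0.00024) and by 0.98 at 0 h. BRWD1, a bromodomain protein, was also longer (limma adjusted p = 0.0026), with 1.87 and 2.05 TPM in siCPSF6 and 5.96 and 6.46 TPM in siNC. RIN2, which activates RAB5, had 1.02, lost without siCPSF6 6 h replicate 2 (limma adjusted p = 0.056). FAM156A had 1.59, PEAK1 1.06 and ARIH1 0.94, and these calls were lost in most of the fits that left out 1 library. The mRNA of CPSF6 that remained in siCPSF6 had an apparent length that differed by 0.06 at 0 h, which did not pass, by 0.67 at 3 h and by 0.94 at 6 h. NEAT1 and RIN2 overlap other annotated genes.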

How the data were processed

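The deposited count table holds, per gene, read counts that the authors scaled to a common upper quartile and rounded, so it was treated as a score and not as raw counts; this comes from the values of the deposited table. The second table holds the TPM values as deposited by the authors. Per the submitters' processing notes STAR, RSEM and the hg38 build were used; for versions, annotation and strand, the answer is not given in the sources used here. Gene names and transcript sequences came from GENCODE 29.

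Genes with a mean normalized count of at least 20 over the 12 libraries were tested on log2(normalized count + 1) with limma 3.58.1 in R 4.3.3 (6 group means, moderated variances with a robust mean trend, 6 residual degrees of freedom, Benjamini-Hochberg adjustment over 12939 genes, threshold 0.05). All 12 libraries entered the fit, which pools their spread. TPM values were tested as log2(TPM + 0.1) where the mean was at least 1. Apparent transcript length was log2((normalized count + 1)/(TPM + 0.01)), centred per library. The procedure was run on simulated data in which 100 genes changed by 0.5 and 100 by 1 on the log2 scale. It recovered 41% and 78% of them, with 10 false calls. In that simulation few genes changed and libraries varied independently, which differs from these data, so it does not test the calls made here. Depth was estimated from the spacing of the low scaled values; in simulated data this recovered the factors estimated here and nearly all random factors, but missed several factors that are simple fractions, so depths are estimates and enter no test. Samples were grouped by the siRNA and time in their titles. Same-numbered libraries deviated from their group means together (correlation 0.11 to 0.24 over 15 pairs of groups), and on these values, not on the labels, the numbers were read as pairing the libraries. The main fit did not use this pairing, so its p-values are unpaired. A fit with the replicate number as a block was run as an alternative.

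The named genes are CPSF6; the 12 largest rises and 12 largest falls among genes that passed at 6 h with a mean count of at least 100, an approved symbol and no pseudogene or readthrough annotation; under the same limits the 6 largest and 6 smallest changes of effect from 0 h and from 3 h and of apparent length; and in each list the members with the 2 smallest p-values that rose and the 2 that fell. Exceptions are stated where they occur. Some genes that the rule selects are not reported here. The libraries compared, the gene lists and the tests were chosen with earlier results of these data known.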

Additional observations from a re-analysis of the deposited data

Results flagged for a closer look

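The values below are changes of the difference between siCPSF6 and siNC from one time to another, tested in limma, and stand out because that change itself passed the test. Between 0 and 6 h 3153 genes passed (1130 with spike-in scaling), and between 3 and 6 h 1981 (604 with spike-in scaling).

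From 0 to 6 h the largest upward changes were 3.58 for SLC6A12, 3.11 for PTGDR2, a prostaglandin D2 receptor, 2.44 for BMT2, a sensor of S-adenosylmethionine, 2.44 for FAM120A, 2.43 for TRIM47 and 2.31 for ITGAL, the alpha L integrin. PTGDR2 had 88 and 144 normalized counts at 6 h in siCPSF6 and 51 and 75 in siNC, and at 0 h 61 and 99 in siCPSF6 and 328 and 431 in siNC. In PTGDR2 and ITGAL the change was thus largely of the siNC level, which was the higher one at 0 h. The largest downward changes were -2.82 for UGT1A1, which conjugates bilirubin, -2.03 for LCN15, a lipocalin, -1.95 for MT1E, -1.92 for RBM15, -1.85 for BCL7B and -1.84 for LONRF3. UGT1A1 had 396 and 224 at 6 h in siCPSF6 and 245 and 200 in siNC, which overlap, and at 0 h 172 and 118 in siCPSF6 and 11 and 18 in siNC. UGT1A1 shares its last exons with other genes of its cluster, so its counts are uncertain. Each of these 12 changes also passed with spike-in scaling and with TPM.

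From 3 to 6 h the largest upward changes were 3.32 for SLC6A12, 3.00 for PTGDR2, 2.55 for PHLDA3, 2.45 for TRPV4, 2.39 for FAM120A and 2.34 for NIPSNAP2. The largest downward changes were -3.04 for BAMBI, a decoy receptor of the TGF-beta family, -2.55 for UGT1A1, -2.30 for CCDC71, -2.08 for NTN4, a netrin, -2.05 for CHST14 and -1.99 for DUS2. BAMBI had only 8 and 3 at 6 h in siCPSF6 and 9 and 8 in siNC. NTN4 had 394 and 379 at 6 h in siCPSF6 and 596 and 520 in siNC, and at 3 h 323 and 362 in siCPSF6 and 116 and 116 in siNC, so that the order of its groups was turned round without overlap.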

How the results depend on the processing

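The count of genes differing at 6 h ranged over 5964 to 7181 when each library was left out, was 5305 with spike-in scaling (2507 higher, 2798 lower), 5610 with TPM and 8035 with the replicate block. The change of effect from 0 h gave 1130 genes with spike-in scaling and 1566 with TPM, 4395 with the replicate block, and 2017 (without siCPSF6 0 h replicate 1) to 3134 with 1 library left out. The change from 3 h gave 604 with spike-in scaling (263 higher, 341 lower), 975 with TPM and 3189 with the replicate block, and 1437 to 1896 with 1 library left out. Apparent length gave 795 genes centred on the median deviation from each gene's mean (chosen after seeing the data), 862 not centred, 1135 with no filter and 0 with only the groups compared (2709 at an unadjusted p under 0.05); its own filter is already a mean count of at least 100. With 1 library left out it gave 707 (without siNC 6 h replicate 2), 1585 (without siNC 6 h replicate 1) and 1778 (without siCPSF6 6 h replicate 2) up to 3311; where this leaves 1 library in a group, that library is assumed to vary like the others. The cause was not tested.

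Among the results for which each named gene was chosen, none changed sign under the alternatives run. The 6 h differences of MBNL3, ACER3, IGHMBP2 and RPAP2, named for their length, were below 0 in counts and above 0 in TPM, and passed in both. For single named genes 3749 values kept their direction and side of the threshold and 74 missed it; for list counts 1373 stayed within 1.5 times and 79 did not. With TPM the 6 h calls of ABCC3, CCND1, RAC1, ZNF33A and HNRNPK were lost, and with spike-in scaling those of HNRNPK, ATP5MC3, FGB, HARS1, SARS1 and SERPINA1. SERPING1 missed the threshold without siCPSF6 6 h replicate 1. The change of LCN15 from 0 h was lost without siCPSF6 6 h replicate 2 or either siNC 0 h library, and that of CCDC71 from 3 h without siCPSF6 3 h replicate 2 or siNC 3 h replicate 2. The change of PTGDR2 from 3 h missed it with spike-in scaling (limma adjusted p = 0.056). With 2 libraries a group, small differences of genes with low counts are not detectable.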
